A study of Mus musculus with 24 samples.

Results

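Of the 2873 differentially methylated regions called between untreated and αGalCer/CD1d-NP-treated liver-resident invariant NKT (LiNKT) cells, 847 were almost fully methylated in untreated cells and lost only a part of that methylation upon treatment. They were chosen by the 2 mean methylation levels deposited for each region: a level of at least 0.8 in untreated cells, and a lower level in treated cells that was still at least 0.4. A methylation level is the fraction of reads that are methylated at the CpGs of a region, from 0 to 1. Levels and losses are therefore given here as a description of the selection, without a test. The regions called with loss of methylation numbered 1983 in all. Besides the 847, they include 330 that started equally high and ended under 0.4, referred to here as regions that lost most methylation, and 806 that started under 0.8. The other 890 regions gained methylation.

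All the cells came from the liver of NOD mice, in which autoimmune diabetes arises without intervention, and were sorted as live cells with intermediate TCRβ staining that bound the αGalCer/CD1d tetramer. The treated mice had received nanoparticles coated with CD1d loaded with the glycolipid αGalCer, at 20 µg per dose and 2 doses per week over 5 weeks, from an age of 8 to 10 weeks. Whole genome bisulfite sequencing (WGBS) used cells from 7 untreated 17-week-old females and from 4 treated 16-week-old mice, whose sex the labels do not give. The chromatin fragments came from 5 untreated and 4 treated males of 13 to 15 weeks, and the SmartSeq2 RNA counts came from 3 males per group of the same ages. Each assay thus used other mice, and each is represented here by 1 value per group, so that no spread between replicates can be given and nothing below is a test between samples. Age differs between the methylation mice and the mice of the other assays, and sex differs at least for the untreated ones, and the part of these differences was not tested. Within WGBS, the groups differ in age and may differ in sex, which cannot be told apart from treatment. The fragments are held in a single table whose cell barcodes carry the suffix -1 or -2. Neither the labels nor the methods tie a suffix to treated mice, so both endings are described as they are and given no group.

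Methylation of the cytosine in a CpG is copied to the daughter strand after replication by the maintenance methyltransferase, and is removed either passively, when copying fails, or through oxidation by TET enzymes. Most of the mammalian genome is kept methylated, whereas active promoters and enhancers in open chromatin carry little methylation. A level between the extremes in a population means that some copies are methylated and others are not, and in a bulk preparation a change in a subset of the cells cannot be told apart from a smaller change in every cell. Invariant NKT cells are T cells with a semi-invariant receptor for glycolipids presented by CD1d, and the liver of the mouse is rich in them.

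Stretches of 260 bases from 9 of the regions show how the loss is written on the DNA. They were chosen because they hold the most uneven loss, the most even losses, members at genes of inhibitory receptors and a granzyme, or the largest differences between the barcode endings. The letters are the plus strand of the reference assembly GRCm38, read 5′ to 3′, and each stretch was placed where its region has the most CpGs. A place named for a stretch, such as the promoter of Lag3, is that of its whole region, and the stretch itself may not reach it. Capitals mark CpGs whose level fell by at least 0.2, and a lower-case cg is a CpG that lost less or has no value. The reference is of the C57BL/6J strain, so that bases at which NOD mice differ are not shown.
Uneven loss upstream of Trerf1, chr17:47123750-47124009: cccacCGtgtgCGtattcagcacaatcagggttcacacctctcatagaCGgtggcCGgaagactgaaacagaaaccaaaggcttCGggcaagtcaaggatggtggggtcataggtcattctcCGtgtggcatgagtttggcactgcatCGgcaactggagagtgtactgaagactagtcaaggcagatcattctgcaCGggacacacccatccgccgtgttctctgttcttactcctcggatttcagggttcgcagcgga
Even loss on the X chromosome, chrX:167130848-167131107: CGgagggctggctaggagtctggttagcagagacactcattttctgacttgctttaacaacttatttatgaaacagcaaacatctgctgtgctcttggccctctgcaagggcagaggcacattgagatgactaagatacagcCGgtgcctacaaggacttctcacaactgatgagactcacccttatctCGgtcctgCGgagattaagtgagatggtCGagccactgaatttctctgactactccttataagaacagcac
Small even loss near Gm5294, chr5:138829551-138829810: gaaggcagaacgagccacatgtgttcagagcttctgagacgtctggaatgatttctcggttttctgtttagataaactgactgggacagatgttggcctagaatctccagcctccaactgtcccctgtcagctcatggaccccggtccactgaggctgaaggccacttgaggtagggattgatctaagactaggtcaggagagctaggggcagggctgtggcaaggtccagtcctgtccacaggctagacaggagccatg
Lag3 intron, chr6:124907491-124907750: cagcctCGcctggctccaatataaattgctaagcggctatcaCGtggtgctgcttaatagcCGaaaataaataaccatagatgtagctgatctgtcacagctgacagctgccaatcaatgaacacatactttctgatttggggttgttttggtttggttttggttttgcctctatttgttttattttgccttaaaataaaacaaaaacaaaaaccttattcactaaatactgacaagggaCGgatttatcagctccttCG
Lag3 promoter and coding part, chr6:124909349-124909608: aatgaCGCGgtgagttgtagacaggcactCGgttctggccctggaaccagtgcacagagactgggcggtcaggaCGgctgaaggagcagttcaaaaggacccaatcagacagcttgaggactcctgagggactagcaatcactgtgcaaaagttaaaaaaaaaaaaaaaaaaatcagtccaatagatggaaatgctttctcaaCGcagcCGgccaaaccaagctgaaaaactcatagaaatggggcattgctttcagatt
Tigit intron, chr16:43661580-43661839: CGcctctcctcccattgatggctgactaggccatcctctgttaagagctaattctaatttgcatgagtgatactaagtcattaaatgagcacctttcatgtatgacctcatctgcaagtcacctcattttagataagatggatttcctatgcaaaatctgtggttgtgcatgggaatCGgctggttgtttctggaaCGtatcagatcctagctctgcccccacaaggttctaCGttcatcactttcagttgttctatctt
Gzmk intron, chr13:113183227-113183486: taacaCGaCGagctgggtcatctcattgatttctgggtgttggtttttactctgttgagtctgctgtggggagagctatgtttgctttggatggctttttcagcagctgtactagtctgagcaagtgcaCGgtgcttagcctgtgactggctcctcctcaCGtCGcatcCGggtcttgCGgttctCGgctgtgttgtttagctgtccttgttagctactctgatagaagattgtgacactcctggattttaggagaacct
Large barcode difference near Gm22867, chr2:44427545-44427804: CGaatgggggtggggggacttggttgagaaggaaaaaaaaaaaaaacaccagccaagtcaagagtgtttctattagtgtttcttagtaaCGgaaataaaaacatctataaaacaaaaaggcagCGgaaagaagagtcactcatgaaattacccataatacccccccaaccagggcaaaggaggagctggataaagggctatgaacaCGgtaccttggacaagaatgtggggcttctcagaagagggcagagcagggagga
Large barcode difference near Gm25140, chr16:38016890-38017149: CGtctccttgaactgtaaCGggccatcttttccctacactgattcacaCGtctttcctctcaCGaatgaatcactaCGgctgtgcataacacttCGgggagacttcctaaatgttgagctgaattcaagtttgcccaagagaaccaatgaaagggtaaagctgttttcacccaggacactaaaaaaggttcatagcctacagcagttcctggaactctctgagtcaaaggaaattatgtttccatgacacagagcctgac
All 8 CpGs of the Gzmk stretch with a value and all 4 of the Tigit stretch are in capitals, and so are the 5 on the X chromosome. In the stretch upstream of Trerf1, 8 of 13 CpGs are in capitals and the other 5 follow behind them, without mixing. The stretch near Gm5294 has 4 CpGs with values and none in capitals.

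The 847 regions had a median level of 0.901 in untreated cells (range 0.80003 to 0.994) and of 0.558 in treated cells (range 0.4002 to 0.941). The median loss, untreated minus treated, was 0.337, and it ran from 0.0295 to 0.524. The level was at least 2-fold lower in 91 regions (10.7%). A loss of 0.25 or more was found in 643 regions (75.9%), and 34 (4.01%) lost under 0.15. The limits pass through a continuous cloud of regions rather than through a gap, as the plot of treated against untreated levels shows. Just inside the untreated limit was a region near Stag2 on the X chromosome, at 0.80003, and just outside was one near Gm48874 at 0.79989. At the treated limit, a region near Stx11 on chromosome 10 ended at 0.40023 and belongs to the set, and one near Gm35028 on the same chromosome ended at 0.39989 and does not.

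**Figure D1:**
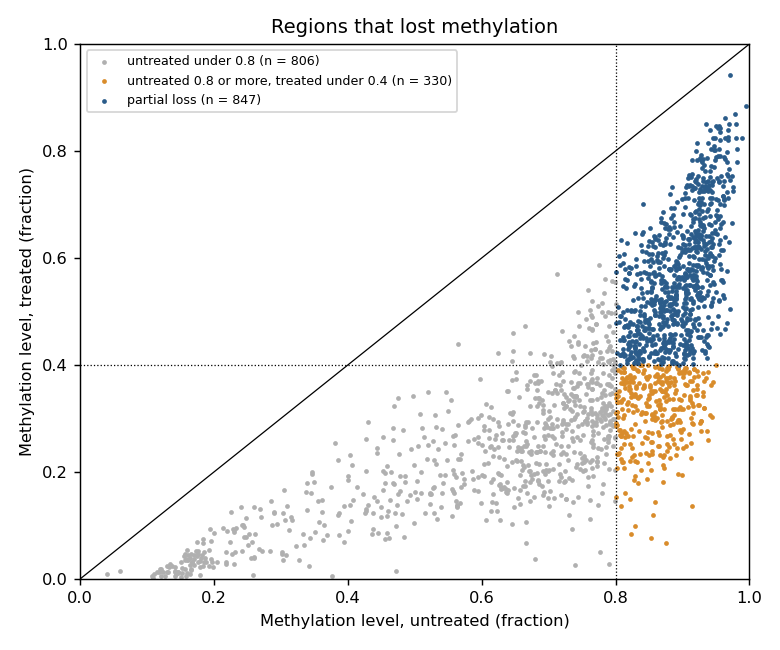
Methylation level of each region in treated cells (vertical axis, fraction) against its level in untreated cells (horizontal axis, fraction), for the 1983 regions that lost methylation. The 847 regions with partial loss lie to the right of the dotted line at 0.8, above the one at 0.4 and below the diagonal, with no gap to the 330 regions beneath them or the 806 to their left.

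The largest losses were at chr17:6593028-6593671, outside any gene with Dynlt1c nearest, where the level fell from 0.937 to 0.413, at chr3:54726520-54727321 in an intron of Supt20, from 0.916 to 0.402, and at chr10:44994458-44995082, from 0.934 to 0.423. At these 3 regions each CpG lost at least 0.21. The smallest loss was in an exon-containing part of Anapc7, which encodes a subunit of the anaphase-promoting complex. At that region, chr5:122431672-122432843, the level went from 0.971 to 0.941 over 27 CpGs, of which 18.5% lost 0.1 or more. The next smallest losses were 0.0841 in an intron of Tbc1d1 and 0.101 in an intron of Sv2c.

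The regions were short and lay mostly inside genes, away from their outermost starts. Their median length was 365 bases (range 200 to 4149), with a median of 8 CpGs (range 5 to 58). An intron held 444 of them (52.4%), an exon 113 (13.3%), a promoter, taken as the 2 kb on either side of a transcription start site (TSS), 84 (9.92%), and 206 (24.3%) overlapped neither a gene body nor a promoter. Promoters were entered in 8.18% of the regions that lost most methylation and in 14.4% of all differentially methylated regions. Of all regions, 48.8% lay in an intron, 14.2% in an exon, and 22.6% overlapped neither a gene body nor a promoter. With the 2 kb upstream only, the share of the 847 in promoters was 5.67%, and with protein-coding genes only 4.13%. Each gene was given a single TSS, its outermost annotated start, so further starts within a gene count neither here nor for promoters. The nearest TSS was a median of 14901 bases away, compared with 16554.5 for regions that lost most methylation and 12124 for all regions. It was more than 10 kb away in 528 of the 847 (62.3%), and more than 50 kb away in 125 (14.8%), against 56.0% and 12.1% of all regions.

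A median region held fewer CpGs than its base composition would give. Sequence composition was compared with that of other called regions only, and not with the genome. The median GC content was 45.5%, and there were 1.95 CpGs per 100 bases, or 0.390 of the number that the base composition would give. Both values were close to those of the regions that lost most methylation (44.7% and 1.92) and of all regions (47.4% and 2.03). Repeats made up a median of 9.66% of a region, and 20 regions (2.36%) were at least 50% repeat, against 5.76% of those that lost most and 4.07% of all. Every autosome and the X chromosome held some of them. Chromosome 10 had the most, with 80, and on chromosome 19 they made up 36 of the 62 regions with loss (58.1%). This share was the highest of any chromosome, and the lowest was 35.5% on chromosome 5, against 847 of the 1983 regions with loss in all. The 11 on the X chromosome had a median loss of 0.274, and the sex of the treated WGBS mice is not given. Within 5 kb of 154 regions (18.2%) lay another region with loss, which in 65 cases was of the same kind, in 50 had started under 0.8 and in 39 had lost most of its methylation. Such a neighbour was found for 27.6% of the regions that lost most methylation.

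Whether partial loss means a moderate fall at every CpG or a strong fall at a few was read from the levels of single CpGs, averaged over the strands. The 847 regions held 7243 CpGs with values. Of these, 6750 (93.2%) fell by at least 0.1, 5506 (76.0%) fell by at least 0.2, and 72 (0.994%) were not lower in treated cells. In treated cells 5130 CpGs (70.8%) were at 0.4 to 0.8, 1070 (14.8%) at 0.2 to 0.4 and 137 (1.89%) under 0.2, while 906 (12.5%) were still at 0.8 or above. In the regions that lost most methylation, 18.8% of CpGs ended under 0.2 and 27.5% at 0.4 to 0.8. Both sets were selected on their treated means, which places these levels, and CpGs pooled over regions do not show how levels mix within a region.

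Counted by region, 637 of the 847 (75.2%) lost at least 0.1 at 90% or more of their CpGs, 200 (23.6%) did so at 50% to 90% of them, and 10 (1.18%) at fewer. When a loss of 0.2 was required, the first share was 38.7% and the last 12.6%. Over all 1983 regions with loss the first share was 78.6% and the last 2.17%, and since both shares rest on the contrast that called the regions, nothing is read from the comparison. The regions with loss at nearly all CpGs had a median loss of 0.356, those with loss at most CpGs 0.255, and the 10 with loss at fewer had 0.108. These classes and losses come from the same CpG levels, so that a region with a small mean loss has few CpGs past 0.1 by construction.

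Within a region, losses of single CpGs spread by more than the differences between the strands of a CpG would give. The median SD of the loss over the CpGs of a region was 0.103. The strands of a CpG are read separately, and their difference gives the average of both an SD, with a median of 0.0529. A median SD of 0.0861 was left once that was taken off. For the regions that lost most methylation, the SD left was 0.0766, and for those that started under 0.8 it was 0.0639. Neighbouring CpGs at most 25 bases apart differed in their loss by a median of 0.065 over 2392 pairs. The strands of a CpG differed by a median of 0.07. That is a difference between single strands, whereas neighbours were compared as averages of both strands, so the values are not set against each other. The difference between neighbours grew to 0.08 at 25 to 50 bases, 0.095 at 50 to 100 bases and 0.1125 at 100 to 200 bases. Losses thus differed less between close CpGs than between those farther apart in the region.

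The loss was slightly larger in the central part of the regions. When each region was divided into 3 equal lengths, the central CpGs lost a mean of 0.335 and the outer ones 0.307, and the centre was ahead in 464 of 763 regions with CpGs in both. The median difference was 0.025, and 0.0434 in regions that lost most methylation. Along the region in 10 steps, the mean loss rose from 0.294 in the first step to 0.330 past the middle and returned to 0.289 in the last, as plotted beside the levels of single CpGs. The ends of a region were set by the authors' program from the same levels, so that this shape belongs to the selection.

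**Figure D2:**
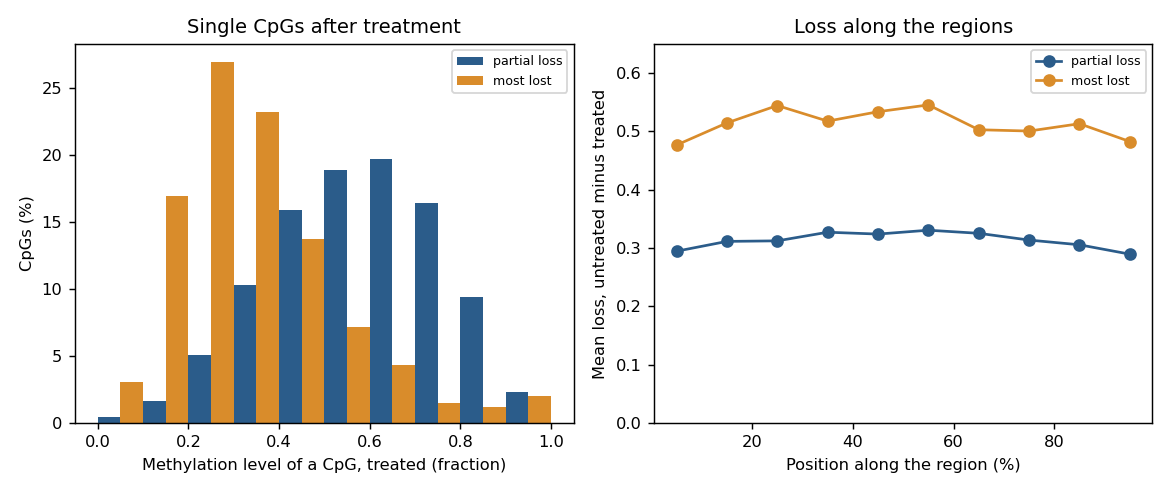
Left, share of CpGs (%) by methylation level in treated cells (fraction, steps of 0.1), for regions with partial loss and regions that lost most methylation, with partial loss highest at 0.6 to 0.7 (19.7% of CpGs) and most lost at 0.2 to 0.3. Each step includes its upper limit, unlike the classes in the text, so a CpG at exactly 0.8 counts in the step below. Right, mean loss of the CpGs (untreated minus treated) by position along the region (% of its length), nearly flat in both, between 0.289 and 0.330 for partial loss.

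Among the 447 regions with at least 8 CpGs, 3 had the largest spread after the strand difference was taken off. The first, chr17:47123710-47124987, lies outside any gene with Trerf1, a transcriptional regulator, as its nearest gene, and had a net SD of 0.309. Its first 9 CpGs, within 189 bases, went from 0.835 to 0.955 in untreated cells to 0.105 to 0.195 in treated cells, while the next CpG, at base 238, ended at 0.7. The 9 CpGs that followed up to base 565 ended at 0.57 or above, and a low level of 0.285 returned only at base 1042. Here a mean of 0.569 in treated cells stands for a nearly emptied segment joined to one with mostly higher levels. Loss was not confined to the first segment, since 67.9% of the 28 CpGs lost at least 0.1. Insertions within 50 bases of a CpG numbered 390 to 817 over the first 9 CpGs, and 163 at most over the rest.

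The other two uneven regions lie within genes. In an intron of Nek7, a mitotic kinase, chr1:138601123-138601797 held CpGs at bases 293 and 396 that were at 0.02 or less in both groups, and a CpG at base 585 that rose from 0.44 to 0.75. Over all members 66 CpGs (0.911%) were under 0.5 in untreated cells, where a reference CpG that NOD mice lack and an unmethylated CpG cannot be told apart. The last of them, chr5:31178043-31178660, at the promoters of Gm29609 and of Gtf3c2, a subunit of a general transcription factor of RNA polymerase III, had losses of 0.035 to 0.635 over 8 CpGs.

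At the other extreme, the 8 CpGs of chrX:167130848-167131608 lost 0.325 to 0.4 each, so that the lines of the groups run in parallel from 0.94 against 0.59 at the first CpG to 0.775 against 0.42 at the last. The 8 CpGs of chr11:109790355-109790619, in an intron of 1700012B07Rik, lost 0.255 to 0.335, and those of chr5:138829551-138829988 lost 0.055 to 0.14. In all 3, the SD over CpGs (0.0248, 0.0262 and 0.0303) was no larger than the SD from strand differences (0.0447, 0.0571 and 0.0304). They were picked for the smallest spread after that SD is taken off, so this follows from the pick.

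**Figure D3:**
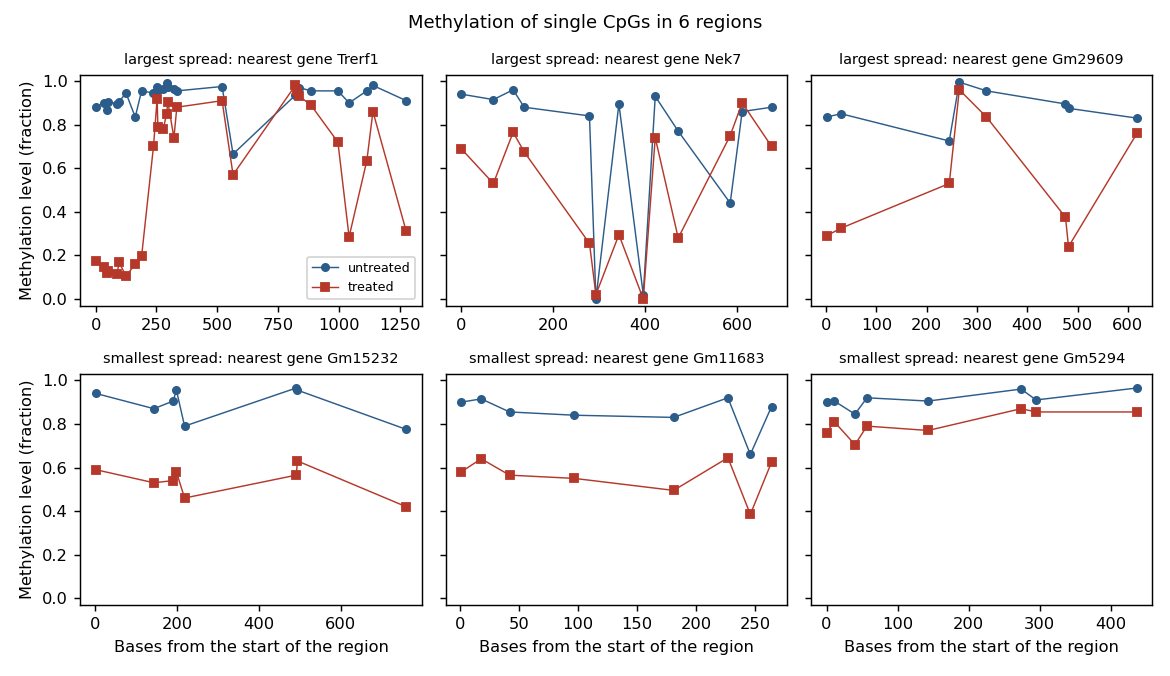
Methylation level (fraction) of every CpG in untreated (blue circles) and treated (red squares) cells against its distance from the start of the region in bases, for the 3 regions with the largest spread of loss (top) and the 3 with the smallest (bottom). Near Trerf1 the first 9 treated CpGs lie at 0.105 to 0.195 and the next at 0.7, whereas in the bottom row the treated line follows the untreated line at a nearly constant distance.

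Chromatin accessibility was read from the insertions of the transposase in the single-nucleus fragments, which fall where DNA is accessible. There were 8565 barcodes ending in -1 and 7237 ending in -2 with at least 1000 fragments, with 162696748 and 149628466 insertions, and 100 barcode sequences occurred with both endings. Doublets were not called or removed here. Over the 847 regions, ending -2 had 861 insertions per 1000000 and ending -1 had 190, a ratio of 4.52. In the flanks, 5 to 10 kb away on either side, the ratio was 1.16. The ratio over the regions was 8.20 in those that lost most methylation and 0.577 in those that gained it. The regions with partial loss therefore leaned to the same ending as the regions that lost most, by a smaller factor.

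Region by region, 787 of the 847 (92.9%) had more insertions per 1000000 in ending -2 and 57 had more in ending -1, whereas 67.6% of all 2873 regions had more in ending -2. At least 50 insertions were present in 557 regions. Among these, 524 (94.1%) were at least 1.5-fold higher in ending -2, compared with 57.8% of the 2416 regions of all kinds with that many, and 0 were at least 1.5-fold higher in ending -1, compared with 21.2%. Of the 511 regions of all kinds that were higher in ending -1, 505 had gained methylation. The shares higher in endings -2 and -1 were 98.6% and 0% in regions that lost most methylation. They were 74.9% and 0.797% in those that started under 0.8, so the lean was shared by regions with loss. For partial loss, the share higher in ending -2 was 86.0% relative to the flanks of the same ending. The median ratio was 5.09 (quartiles 2.58 and 10.6), between the 9.54 of regions that lost most methylation and the 2.75 of those that started under 0.8. The other 290 regions had few insertions and were not called. Summed, they gave a ratio of 2.72. Because regions with at least 50 insertions can reach that number through the ending in which they are high, the ratio summed over all 847 is the value that leaves none out.

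The regions were not strongly open. A median region had 1.48 times the insertions per base of its flanks, with 0.683 times in ending -1 and 2.01 times in ending -2, against 3.51 times over both endings for regions that lost most methylation and 2.75 times for all. In 312 regions there were fewer insertions per base than in the flanks, and 360 (42.5%) had at least 2 times as many. Taken by ending, 121 regions (14.3%) reached 2 times their flanks in ending -1 and 427 (50.4%) in ending -2. At the centre of the regions, ending -1 had 0.0488 mean insertions per region, per 1000000 and 100 bases, below the mean of 0.149 in the outer bins at 2.5 to 3 kb, and ending -2 had 0.240 against 0.185. The centre was thus a dip in the first ending and a low peak in the second. In regions that lost most methylation, ending -2 reached 0.701 at the centre and ending -1 0.0810.

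**Figure D4:**
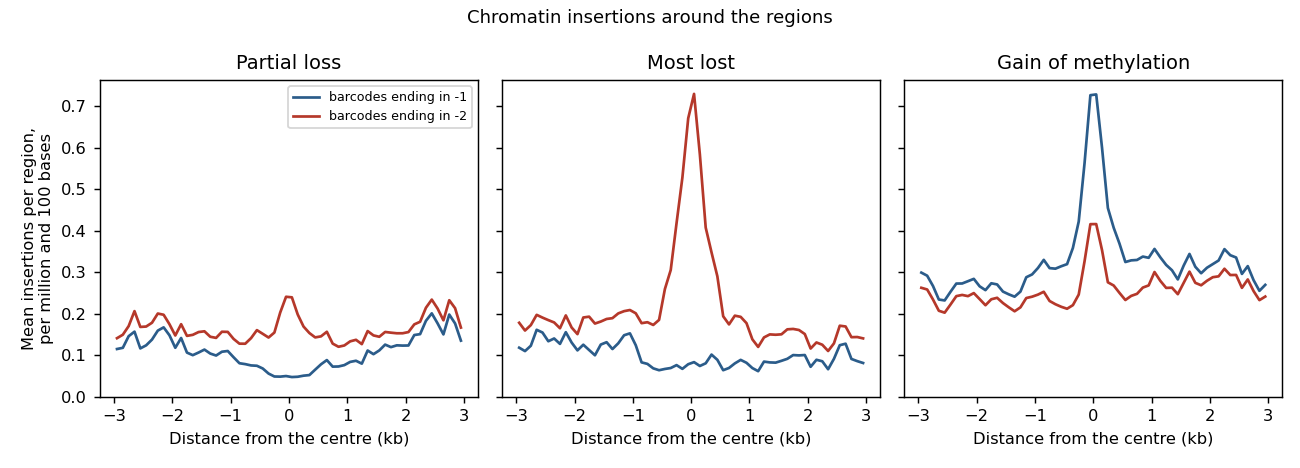
Mean insertions per region, per 1000000 insertions of an ending and 100 bases (vertical axis), by distance from the centre of the region in kb (horizontal axis), for barcodes ending in -1 (blue) and -2 (red). In regions with partial loss the centre reads 0.0488 in ending -1 and 0.240 in ending -2, in regions that lost most methylation 0.0810 and 0.701, and in regions that gained methylation 0.728 and 0.416.

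Regions with larger losses differed more between the endings. The ratio of insertions summed over all regions, with no minimum, was 3.07 in the 282 that lost least, 4.41 in the next 282 and 5.90 in the 283 that lost most, and 87.9%, 92.6% and 98.2% of these regions had more insertions per 1000000 in ending -2. Their median enrichment over the flanks was 1.32, 1.38 and 2.41. By place, the summed ratio was 3.85 in promoters, 4.48 in exons, 4.63 in introns and 4.74 outside genes. Within regions with at least 8 CpGs, the rank correlation between the loss of a CpG and the insertions around it was above 0 in 304 of 444, with a median of 0.21. Loss and insertions both peak at the centre of a region, and the centre of the loss belongs to the selection, so nothing is read from this count.

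The largest ratio was at chr2:44427545-44427864, by the promoter of the small RNA gene Gm22867, with 2 insertions in ending -1 and 475 in ending -2. Its level fell from 0.806 to 0.446, and its density was 74.5 times that of the flanks. At chr16:38016890-38017268, outside any gene, there were 1 and 171 insertions, and the level fell from 0.923 to 0.630. A region in an intron of Tmem241 on chromosome 18 had 1 and 175, and its level fell from 0.837 to 0.510. These 3 were picked for their ratios, and their intermediate levels follow from the selection. The lowest ratio was at chr5:114400856-114401688, over an exon of Ube3b, a ubiquitin ligase, with 49 and 32 insertions (ratio 0.710) and levels of 0.976 and 0.732.

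Short sequence motifs of families of transcription factors were counted in the central 200 bases of each region on both strands, in the GRCm38 reference. The AP-1 motif TGANTCA was present in 233 regions (27.5%), in 28.5% of those that lost most methylation and in 17.1% of all 2873. The NFAT motif TGGAAA was present in 29.9%, against 27.3% and 22.7%. Both belong to factors that T cells switch on after receptor stimulation. The ETS motifs CCGGAA or AGGAAG were in 25.03% (66 of the 330 regions and 30.5%), the RUNX motif TGTGGT in 15.9% (16.7% and 19.98%), and the E-box CAGCTG in 8.15% (9.70% and 11.9%). The GATA motif AGATAA was in 10.0% (6.97% and 10.0%), and the T-box motif GGTGTGA in 4.60% (3.64% and 4.04%). Regions that gained methylation are part of the share over all, and held AP-1 in 3.37%, NFAT in 13.5%, ETS in 43.6% and RUNX in 24.8%. Their shares were 18.9% for the E-box, 10.3% for GATA and 3.37% for T-box. In regions with loss from under 0.8, the shares were 16.5% for AP-1, 23.4% for NFAT, 26.2% for ETS and 20.2% for RUNX. They were 9.18% for the E-box, 10.9% for GATA and 4.34% for T-box. The ETS and NFAT motifs share the letters GGAA and can overlap, and a match is a match of letters only. Summed over all regions with no minimum, the ratio between the endings was 5.42 with the AP-1 motif and 4.25 without it. The values with and without were 5.997 and 4.34 for the E-box, 5.32 and 4.39 for RUNX, 5.29 and 4.48 for T-box, and 4.92 and 4.38 for NFAT. They were 4.63 and 4.48 for ETS, and for GATA the ratio was lower with the motif, at 4.10 and 4.55. The shares of regions with more insertions in ending -2 were close, at 93.1% with AP-1 and 92.8% without. They were lower with the motif for the E-box (91.3% and 93.1%), RUNX (91.9% and 93.1%) and GATA (90.6% and 93.2%). With T-box (94.9% and 92.8%) and NFAT (93.7% and 92.6%) they were higher, and for ETS both were 92.9%. The summed ratios and the shares thus did not always go the same way. Median losses were 0.345 with AP-1 and 0.331 without. In the printed stretch near Gm25140, the AP-1 motif occurs 3 times, and in those of Lag3, Tigit and Gzmk it occurs 0 times.

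The body or promoter of 587 genes, 476 of them protein-coding, overlapped at least 1 region with partial loss. Of these genes, 86 held 2 or more and 20 held 3 or more. Wwox, an oxidoreductase gene spanning 913 kb, and Prkca, the gene of protein kinase C alpha spanning 411 kb, held 9 each. Atxn1 held 6, Itpr1, which encodes an intracellular calcium channel, held 5, and Foxp1 and Rbpj, genes of transcription factors, held 4 each. The genes with most regions are thus largely long ones. A region that lost most methylation was also present in 81 of the 587 genes, and a region with gain in 64.

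In Prkca, the losses of the 9 regions ran from 0.226 to 0.502, and each of the 9 had more insertions in ending -2, from 0 against 24 to 22 against 1224. In Wwox they ran from 0.124 to 0.507, with 3 against 41 insertions at the largest loss and 337 against 1494 at chr8:115065427, where the level went from 0.870 to 0.685. All 5 regions of Itpr1 had ratios between 3.24 and 20.2. The segments of a gene lost methylation by different amounts, and the loss itself follows from the selection. Of all 847 regions, 92.9% had more insertions in ending -2, scaled to the total of each ending. A shared lean is therefore common to nearly any group of these regions, and no concordance within a gene is read from it. The same genes also held regions that gained methylation, 2 in Prkca and 3 in Wwox, and Foxp1 held 6 beside its 4 regions with partial loss.

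RNA was read from SmartSeq2 counts of 273 untreated and 251 treated cells to which the study assigned a sub-cluster, summed per group (172559865 and 149084200 counts) and given as counts per 1000000 (CPM). Of the 587 genes, 432 had at least 10 counts. At least 2-fold higher in treated cells were 128 (29.6%), against 20.1% of the 15031 genes with that many counts, and at least 2-fold lower were 78 (18.1%), against 17.2%. The median log2 ratio was 0.23, compared with 0.02 over all genes and 0.28 over genes with a region that lost most methylation, of which 31.7% were higher. Of 76 genes with 2 or more regions and enough counts, 27 (35.5%) were higher and 10 were lower. Genes with a region had more reads than others, with a median of 20.5 CPM in untreated cells against 8.07 over all genes tested. Among genes with at least 500 counts, 29.8% of those with a region were higher, against 23.5% of all, and 18.6% were lower, against 20.7%. With 1 sum per group, a few cells with many reads can set a value, so the share of cells with reads in the untreated and treated group is given beside each gene of the lists.

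Treated cells also held reads of other cell types. The 4 macrophage markers summed to 1793 CPM in treated and 0.0116 in untreated cells. Most of this was Lyz2, at 1688 CPM in 4.38% of treated cells, while Clec4f, the marker of Kupffer cells, was at 0. The 4 hepatocyte markers summed to 82.3 and 0 CPM, and of the endothelial markers Pecam1 had 18.5 and 1.05 CPM while Stab2 and Lyve1 were at 0. B cell and neutrophil markers were near 0 in both. The 5 T and iNKT cell markers summed to 3284 and 2965 CPM, and all 5 were read in both groups. Without the 14 treated and 2 untreated cells that had macrophage or hepatocyte reads, 28.5% of the genes were higher and 18.7% lower.

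Over all 21924 annotated protein-coding genes, 2.17% held a region with partial loss. This share includes genes not read in these cells, and the lists below were chosen with results of these data known. Of 19 inhibitory and costimulatory receptors, 6 held a region with partial loss and 3 held one that lost most methylation. In the whole list 10 of 19 were at least 2-fold higher in treated cells, against 20.1% of all genes with enough counts, and 0 were lower, against 17.2%. Lag3, an inhibitory receptor that binds MHC class II, held 3 regions with partial loss, of which 2 are described. The level fell from 0.879 to 0.529 at chr6:124907206-124907750 in the gene, and from 0.908 to 0.534 at chr6:124909137-124909918, which reaches from coding sequence into the promoter. Insertions in endings -1 and -2 were 43 and 171 in the former, and 75 and 259 in the latter. Of the 8 CpGs of the former and the 17 of the latter, the single CpG with a loss under 0.1 was at base 319 of the former, where 0.985 became 0.89. Lag3 was read 0 times in untreated cells, and treated cells had 697 CPM (95% Poisson interval 693 to 701, counting error only), in 22.3% of cells.

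Tigit, an inhibitory receptor of the nectin family ligands, had 5 CpGs in an intron (chr16:43661580-43661851) that went from 0.917 to 0.426 on average, with 31 and 507 insertions. Its RNA went from 4.94 to 342 CPM, with reads in 0.733% and 16.3% of cells. Izumo1r, which encodes the folate receptor FR4 of T cells, fell from 0.902 to 0.558 in an intron, and had 17.5 and 416 CPM, in 1.47% and 16.7% of cells. These genes combined a partial loss with RNA that was low or absent in untreated cells.

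Tnfrsf4, the gene of the costimulatory receptor OX40, had a pair of adjoining promoter regions of which one kept most of its methylation (0.989 to 0.825) and the other less (0.924 to 0.621). Its counts were 0 and 172 CPM, in 6.37% of treated cells. Ctla4, an inhibitory receptor that competes with CD28, held a region in an intron, from 0.936 to 0.617, and one that includes coding sequence, from 0.958 to 0.663, and had 0 and 4.62 CPM, in 6.37% of treated cells. Cd200, the gene of a membrane glycoprotein ligand, went from 0.921 to 0.741 and had 0 and 0.483 CPM, in 0.797% of treated cells. Of the 6 receptor genes with a member, 5 were over 2-fold higher, and Cd200 was near the limit of detection. This stands beside 10 of 19 in the whole list, which was chosen with results known, and 20.1% of all genes tested.

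Of 32 transcription factors of T and iNKT cells, 6 held a region with partial loss, against 2.17% of all protein-coding genes. A region that lost most methylation was held by 8 of the 32. In the whole list 10 were at least 2-fold higher and 2 lower, against 20.1% and 17.2% of all genes with enough counts. Maf, which drives IL-10 in several T cell types, lost from 0.8496 to 0.460 over a region of 6 CpGs, with 63 and 80 insertions, and had 28.6 and 123 CPM, in 6.96% and 29.5% of cells. Irf4, a factor induced by T cell receptor signals, had regions at 0.944 to 0.712, 0.939 to 0.640 and 0.855 to 0.513, next to 3 others in the gene that lost most methylation, and 4.43 and 15.3 CPM, in 1.10% and 2.79% of cells. Batf, an AP-1 family partner of Irf4, had a region with a large fall (0.942 to 0.468) and one with a small fall (0.938 to 0.815), and 100.1 and 224 CPM, in 7.69% and 16.7% of cells.

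Bach2, a repressor found in naive and memory T cells, had 2 regions (0.865 to 0.522 and 0.926 to 0.729) and went from 0.0522 to 31.0 CPM, in 1.47% and 3.19% of cells. Ikzf2, the gene of Helios, had 3 regions with losses of 0.202 to 0.368, and 56.4 and 89.3 CPM, in 4.03% and 13.1% of cells. At chr1:69548085-69549122 insertions numbered 40 and 559. Prdm1, which encodes BLIMP-1, had a loss of 0.299 in a region of 5 CpGs that includes coding sequence and UTR, and 67.0 and 111 CPM, in 4.76% and 7.57% of cells. Neither Ikzf2 nor Prdm1 reached 2-fold.

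Gzmk, the gene of granzyme K, was the single one of 14 cytotoxic genes with a member. The region, chr13:113183072-113183924, lies in an intron of a long annotated transcript of Gzmk, and the nearest TSS is that of Esm1. Its level fell from 0.918 to 0.485 over 17 CpGs, each by at least 0.28, and it had 447 and 2594 insertions, 64.4 times the density of its flanks. Gzmk counts were 27.2 and 119 CPM, in 1.83% and 5.98% of cells. Among cytokines, Ifng held 1 of the regions, from 0.866 to 0.429, where insertions differed little (158 and 197), and had 136 and 192 CPM, in 19.05% and 21.1% of cells. It was the single one of 13 cytokine genes with a member.

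Among the remaining lists, 2 of 17 cytokine receptors, 2 of 20 genes of T cell receptor signalling, 2 of 22 genes of chemokine receptors and adhesion, and 1 of 11 genes of DNA methylation held a region with partial loss, against the 2.17% of protein-coding genes. Of all tested genes in these lists, at least 2-fold higher and lower were 4 and 7 of 16 cytokine receptors and 0 and 3 of 20 signalling genes. For chemokine receptors and adhesion they were 8 and 3 of 19, and for DNA methylation 4 and 1 of 11. The counts were 5 and 3 of 12 for cytokines and 8 and 0 of 13 for cytotoxic genes, against 20.1% and 17.2% of all genes tested. Il12rb2, a subunit of the IL-12 receptor, fell from 0.958 to 0.560 in methylation and had 117 and 61.6 CPM, in 12.1% and 7.97% of cells, which did not reach a 2-fold difference. Il6ra had 4.59 and 28.5 CPM, in 0.733% and 2.39% of cells, but 8.10 CPM in treated cells without those that held macrophage or hepatocyte reads. Itga4, the integrin alpha 4 subunit, had 2 intronic regions that both fell by about 0.4 (0.403 and 0.380), and 28.1 and 292 CPM, in 2.93% and 22.7% of cells. Its partner Itgb1 fell from 0.828 to 0.548, had 265 and 223 insertions, and 202 and 186 CPM, in 19.4% and 23.1% of cells.

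The signalling genes with a member changed little in RNA: Fyn, a Src family kinase, had 98.2 and 125 CPM, in 10.6% and 11.6% of cells, and Cblb, a ubiquitin ligase that restrains T cell receptor signals, had 159 and 155 CPM, in 12.8% and 8.37%. Tet2, which oxidizes methylated cytosine, had a region that fell from 0.930 to 0.662, with 8 and 17 insertions, and 12.3 and 68.1 CPM, in 4.40% and 5.98% of cells. Other kinds of region lay in some of the listed genes besides Irf4. Tnfrsf4, Ctla4, Prdm1, Itgb1 and Tet2 each held 1 that lost most methylation, and Bach2 held 2. Regions with loss that started under 0.8 numbered 4 in Bach2, 3 each in Prdm1 and Fyn, and 2 each in Itga4, Ifng and Itgb1. Maf, Gzmk, Izumo1r, Ctla4, Cblb and Ikzf2 held 1 of these each. A gain was found at 2 regions in Bach2 and at 1 each in Cblb and Fyn. Partial loss was thus found at listed genes whose RNA was at least 2-fold higher in treated cells and at others that did not reach 2-fold. None of the listed genes with a region was 2-fold lower, against 18.1% of all tested genes with a region and 17.2% of all genes tested. The lists were chosen with results of these data known, so nothing is read from that count.

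**Figure D5:**
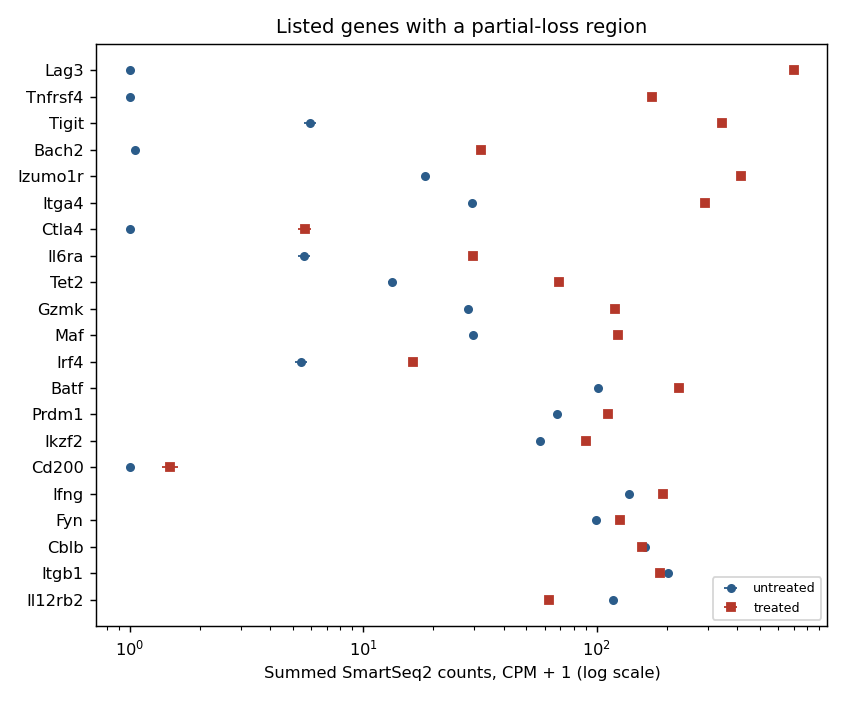
Summed SmartSeq2 CPM plus 1 (horizontal axis, log scale) in untreated (blue circles) and treated (red squares) cells for the 21 genes of the lists that hold a region with partial loss, ordered by their ratio, with 95% Poisson intervals for counting error only. Lag3 stands at the top with 0 and 697 CPM, Cblb and Itgb1 lie near equality, and Il12rb2 is lowest with 117 and 61.6 CPM.

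Among genes with at least 500 counts that were read in 20% or more of the cells of a group, 19 held a region with partial loss. After Lag3, Itga4 and Maf, the largest rises were those of Ccl5, a chemokine made by effector T cells, from 782 to 2406 CPM, and Npc2, a lysosomal cholesterol carrier, from 188 to 432 CPM. The lowest ratios were those of Hsp90aa1, a heat shock protein (log2 ratio -0.30), Inpp4b, a phosphatase of phosphoinositides (-0.27), Arhgap15, a Rac-directed GTPase activator (-0.19), Rpl27a, a ribosomal protein (-0.16), and Eif3h, a translation initiation factor (-0.12). None of these 5 was 2-fold lower. A gene could pass the limit of 20% through either group. Lag3, Itga4, Maf, Npc2 and Eif3h passed it only through treated cells. The limit thus favours genes that are high in treated cells, and nothing is read from the rises against the falls. Of the long genes with most regions, Prkca had 7.37 and 87.3 CPM, in 6.23% and 18.3% of cells, and Rbpj had 6.42 and 32.8 CPM, in 4.76% and 13.1%. Itpr1 had 8.85 and 40.1 CPM, although the share of cells with its reads was no higher, at 3.66% and 3.19%. Foxp1 had 85.5 and 85.2 CPM, in 17.2% and 17.9% of cells. Wwox went from 12.8 to 0.879 CPM, but with reads in 1.10% and 0.398% of cells.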

How the data were processed

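Members, gene lists and comparisons were chosen with earlier results of these data known. For WGBS, the fraction values deposited by the authors are methylated over all reads, after mapping to mm10 (GRCm38) with BSMAP, removal of duplicates and selection of unique reads by their provider. How replicates became 1 value per group is not stated in the sources used here. The authors used metilene to call regions, and their q-values and differences were not used. The tables used here give no read depth, so that no interval could be set on a fraction and no minimum coverage applied. The number of cytosines per region is a count deposited with the regions. The SmartSeq2 count values are those of the authors, aligned with STAR to GRCm38, without molecular identifiers. Strand of the counting is not stated, so that overlapping and antisense genes cannot be told apart. The ATAC fragment counts are those of the authors, from Cell Ranger ARC with BWA-MEM, with both groups in 1 table. There were 0 columns of other samples.

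Strands of a CpG were averaged. Regions were placed with GENCODE release M21, with a single TSS per gene at its outermost annotated start. Sequences were read from the GRCm38 genome. Each end of a fragment was taken as 1 insertion, for barcodes with at least 1000 fragments. SmartSeq2 counts were summed per group over 273 and 251 of 284 and 282 deposited cells, namely those to which the study gives a sub-cluster, with a prior of 1 CPM in log2 ratios, a minimum of 10 summed counts and exact 95% Poisson intervals. For a sum of 0 in untreated cells, this interval reaches up to 0.0214 CPM. Python 3.11.15, pandas 2.3.3, numpy 2.4.6, scipy 1.17.1 and pysam 0.24.0 were used, and edgeR 4.0.16 in R 4.3.3 for the TMM scaling of an alternative. The scripts were tested on simulated data.

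Regions and genes were named by rule: the 3 largest and 3 smallest losses, spreads (8 or more CpGs) and barcode ratios (50 or more insertions), members at listed genes, the 5 largest rises and falls of CPM among genes with at least 500 counts and reads in 20% of the cells of a group, and the genes with most members. Alternatives changed the means and limits of the selection, the promoter and gene set, the CpG rules, the barcode and insertion minimums, the scaling, the prior, the gene assignment and the motif window. The ChIP-seq, 10X RNA and bulk accessibility samples were not analysed here, and 1 sequence and its region are not reported here.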

Additional observations from a re-analysis of the deposited data

How the results depend on the processing

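No paired analysis was possible because each assay has 1 value per group, and for the same reason no replicate could be left out. The 847 regions became 876 with means over single CpGs (834 shared), 711 with a treated limit of 0.45 and 694 with an untreated limit of 0.85. The share in promoters fell from 9.92% to 5.67% with the 2 kb upstream only and to 4.13% with protein-coding genes only, which also put 66.6% in place of 72.5% in gene bodies. Loss at nearly all CpGs was found in 90.3%, 38.7% and 72.0% of regions, in place of 75.2%, when a loss of 0.05 or of 0.2 counted and when 8 CpGs were required, and loss at under 50% of CpGs in 0.118%, 12.6% and 2.24%, in place of 1.18%. The share higher in ending -2, 94.1%, became 86.0% relative to the flanks, 91.0% with a minimum of 20 insertions, 83.5% at 2-fold and 88.5% with 20 insertions required in ending -1 alone, an alternative chosen after seeing the data. The share higher in ending -1, 0%, became 0.718% relative to the flanks and 1.23% and 0.820% with these minimums. With every gene whose TSS lies within 50 kb, 25.02% were higher in place of 29.6%. In whole regions, which have 200 or more bases, AP-1 was found in 41.4%, RUNX in 28.6%, ETS in 41.6%, T-box in 9.92%, NFAT in 47.7%, GATA in 21.6% and E-box in 17.7%. Other alternatives, among them the one without marker-positive cells, also chosen after seeing the data, moved these shares by little: 27.5% to 33.1% of genes were higher and 16.2% to 20.1% lower. Unknown read depth and 1 value per group limit every methylation level given here.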

Other observations

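Outside CpGs, 84801 cytosines in the 847 regions had values, with a mean level of 1.62% in untreated and 1.78% in treated cells. Regions at 0 insertions numbered 15 in ending -1 and 7 in ending -2. Among genes with 3 regions of partial loss, 3 are given here that were picked after their values were seen. Pcgf5 went from 36.6 to 5.61 CPM, Ptprj had 6.31 and 0.503 CPM, and Ifih1, a sensor of viral RNA, had 13.1 and 39.1 CPM. All 3 were read in few cells, with 1.10% to 3.66% of untreated and 1.20% to 1.59% of treated cells holding reads.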
